A study of Caenorhabditis elegans with 10 samples.

Results

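The genes described here encode the respiratory chain, the ATP synthase and the mitochondrial ribosome of *Caenorhabditis elegans*, and they were followed in RNA that came down with the dynein light chain DLC-1. They were chosen by gene name from the authors' table of RNAs enriched with FLAG-tagged DLC-1: names that start with nduo-, ndfl-, ctc-, ctb-, nuo-, cox-, sdha-, sdhb-, ucr-, mrpl- or mrps-, and the genes *atp-1* to *atp-6*, *gas-1*, *lpd-5*, *isp-1*, *cyc-1*, *cyc-2.1* and *mev-1*. Of the 2732 genes of the table, 8 met the rule, out of 123 genes with such names in the WBcel235 reference. That is 6.5%, where the table holds 10.6% of all protein-coding genes in the reference. The 8 genes were *nduo-4*, *nduo-5*, *ctc-1* and *ctb-1* of the mitochondrial genome, *nuo-5* and *sdha-1* of the nuclear genome, and the mitochondrial ribosomal protein genes *mrpl-45* and *mrps-31*.

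The respiratory chain sits in the inner mitochondrial membrane, where complexes I to IV pass electrons to oxygen and pump protons, and the ATP synthase (complex V) uses the proton gradient to make ATP. Complexes I, III, IV and V mix subunits encoded in the mitochondrial genome, which are transcribed and translated inside the organelle, with subunits encoded in the nucleus and imported. Complex II is encoded in the nucleus alone. The mitochondrial ribosome makes the organelle's own proteins, and its protein parts are all encoded in the nucleus. In the worm, the hermaphrodite germline holds much of the animal's mitochondrial DNA.

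The groups were 5 FLAG immunoprecipitates and 5 inputs, all from whole-worm extracts of synchronized young adults with the genotype 3xFLAG::DLC-1, so the tag was carried by the inputs too. DLC-1 belongs to the LC8 family of light chains, small proteins that work in the dynein motor and also as partners of many other proteins. The comparison asks which RNAs were higher in the DLC-1 immunoprecipitate than in the extract it was taken from. Oligo-dT priming was used for the input libraries only, so library preparation and group are the same split of the samples and cannot be told apart. Replicates are numbered 1 to 5 in both groups with nothing in the labels on separate cultures, and the spread behind the authors' p-values may be technical. Worms without the tag were not analysed here.

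The file holds the authors' comparison and no value per library. Depth is therefore unknown, and each gene is given by its log2 fold change of immunoprecipitate over input, the standard error (SE) of that change, and its mean normalized count over the libraries. The authors' deposited table holds only genes with a log2 fold change above 1 and an adjusted p under 0.01. These values chose the members as well, so that all 8 were higher in the immunoprecipitate is no finding. A gene not listed may have been depleted, unchanged, raised by less than 2-fold or untested. It may also have been raised by more than 2-fold with an adjusted p that missed the limit of 0.01. Of 17 marker genes of germline, muscle, intestine, neurons and hypodermis, 9 were listed: 3 of 3 for muscle, 3 of 4 for germline, 2 of 4 for intestine, 1 of 3 for neurons and none of the 3 for hypodermis. Over all reference protein-coding genes 10.6% were listed. These few markers were not tested against that share and were not matched for gene span. Since low and unchanged genes are left out, the tissue label could not be checked against markers.

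In the immunoprecipitates, 4 of the 12 protein-coding genes of the mitochondrial genome were listed as enriched, against 2 of 40 nuclear genes of the respiratory chain and ATP synthase. The listed mitochondrial genes are the 4 longest of that genome. The 40 nuclear genes include 8 assembly factor genes of complex IV, none of them listed, while the 12 mitochondrial genes all encode subunits. The table holds 2732 of 20328 tested genes, or 13.4%, and 2120 of the 19983 protein-coding genes in the reference, or 10.6%. The members' shares were 33.3% for the mitochondrial genome, 5% for the nuclear respiratory chain genes and 2.82% for the 71 mitochondrial ribosomal protein genes, of which 2 were listed. The counts are small, and the shares were not tested against each other. In RNA of whole worms, the tissue a member's RNA came from cannot be read from these values. For the mean counts, though not for folds within the same extract, fewer cells of a type and less RNA per cell cannot be told apart.

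Among the mitochondrially encoded members, 2 belong to complex I, the NADH dehydrogenase at which most electrons enter the chain. *nduo-4* (WBGene00010963), for the proton-pumping membrane subunit ND4, stood at 2.40 ± 0.26 (log2 fold change ± SE), or 5.29-fold, with a mean normalized count of 588 in the authors' deposited table. *nduo-5* (WBGene00010967), for the related pump subunit ND5, stood at 1.82 ± 0.19 with a mean of 1109 in the authors' deposited table, or 3.54-fold. On the mitochondrial genome of WBcel235, *nduo-4* lies at 6506 to 7735 and *nduo-5* at 11691 to 13274. The 5 other complex I genes of this genome, *nduo-1*, *nduo-2*, *nduo-3*, *nduo-6* and *ndfl-4*, were not listed.

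The gene for the mitochondrially encoded subunit of complex III, *ctb-1* (WBGene00000829, MT 4504 to 5616), encodes cytochrome b, which carries electrons from ubiquinol across the membrane. It stood at 1.46 ± 0.20 (log2 fold change ± SE) with a mean of 1890 in the authors' deposited table, or 2.76-fold, the lowest of the 4. Of the 3 complex IV genes of this genome, *ctc-1* (WBGene00010964, MT 7845 to 9422) was listed. It encodes cytochrome oxidase subunit 1, the haem and copper subunit that reduces oxygen. Its log2 fold change was 1.74 ± 0.18 (± SE) and its mean 4126 in the authors' deposited table, or 3.34-fold, and 97.7% of all listed genes had a lower mean. The genes for the other oxidase subunits, *ctc-2* and *ctc-3*, were not listed, and neither was *atp-6*, the only ATP synthase gene of this genome.

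Per kilobase of gene, which is meaningful here because these genes have no introns, the mean over libraries was 2615 normalized counts for *ctc-1*, 1698 for *ctb-1*, 700 for *nduo-5* and 478 for *nduo-4*, from the authors' deposited table. The order of the folds was not that of the levels: *nduo-4* had the lowest level and the highest fold. Its log2 fold change exceeded that of *ctb-1* by 0.94 (95% interval 0.30 to 1.58) and that of *ctc-1* by 0.66 (0.055 to 1.27). Against *nduo-5* the difference was 0.58 (-0.042 to 1.2). Intervals of the remaining pairs among the 4 genes held 0 as well, so *nduo-5*, *ctc-1* and *ctb-1* did not differ beyond their errors. These intervals take the errors of different genes as independent, which genes measured in the same libraries need not have, and they are not adjusted for the 28 pairs of members compared.

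**Figure D1:**
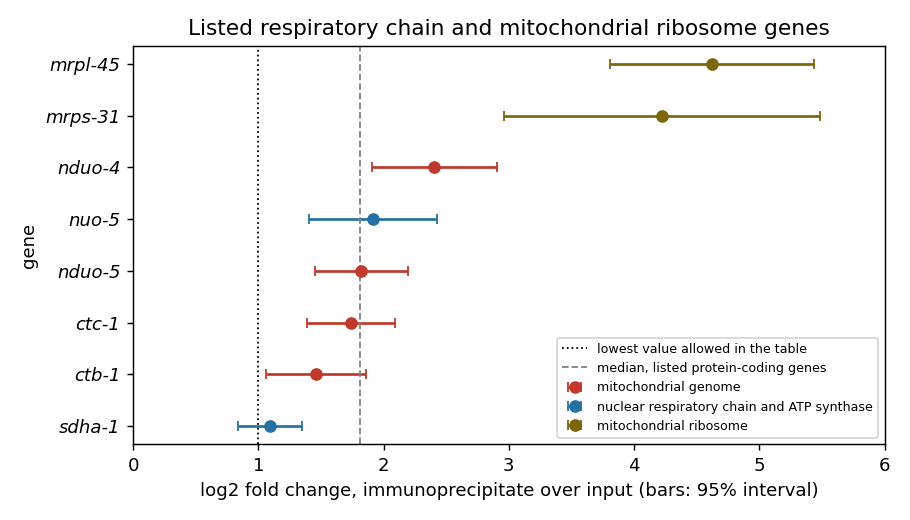
Log2 fold change of immunoprecipitate over input for the 8 members (points, with 95% intervals from the authors' standard errors), coloured by genome and function. The dotted line marks the lowest value allowed in the table and the dashed line the median of 1.81 over the listed protein-coding genes. *mrpl-45* and *mrps-31* stand above 4, *nduo-4* at 2.40, and the other 5 members between 1.09 and 1.92.

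Length set the listed mitochondrial genes apart from the rest of that genome. The reason was not tested, and oligo-dT priming of the inputs alone cannot be told apart from the groups. The listed genes were 1584 (*nduo-5*), 1578 (*ctc-1*), 1230 (*nduo-4*) and 1113 bp (*ctb-1*) long. The longest gene that was not listed, *nduo-1*, for the complex I subunit at the junction of its arms, was 876 bp long, and the shortest, *ndfl-4*, was 234 bp. The lengths of listed and unlisted genes did not overlap. Place along the molecule did not separate them fully. *nduo-4* and *ctc-1* are neighbours with no annotated gene between them, at 6506 to 7735 and 7845 to 9422. *ctb-1* at 4504 and *nduo-4* have the unlisted *ctc-3* between them. *nduo-5* directly follows the unlisted *nduo-3*, with which it shares 1 base. Within the 4 listed genes, the order of the folds was not that of the lengths. *nduo-4* had the highest fold but ranks in length below *nduo-5* and *ctc-1*, and its fold did not exceed that of *nduo-5* beyond the errors. The folds of *nduo-5*, *ctc-1* and *ctb-1* were in the order of their lengths, with differences within their errors.

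**Figure D2:**
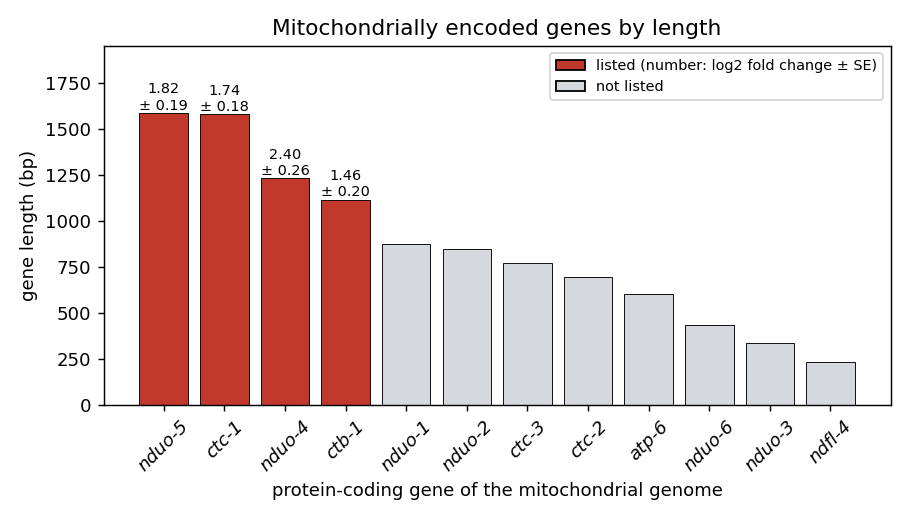
Length in bp of the 12 protein-coding genes of the mitochondrial genome, in order of length. Red bars are listed genes, with the log2 fold change ± SE of the authors' deposited table above them, and grey bars are genes not listed. All 4 genes of 1113 bp or more are listed and none of the 8 genes of 876 bp or less.

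Few protein-coding genes of this length were in the table. Of all 6268 protein-coding genes with a span of 1000 to 2000 bp, 111 were listed, or 1.77%, and the 4 mitochondrial genes are among those 111. Under 500 bp, where 3 of the unlisted mitochondrial genes fall, 6.91% of 1186 genes were listed, or 1.78% without histone genes. Between 500 and 1000 bp 1.35% of 2515 genes were listed. The share was 8.06% between 2000 and 4000 bp and 24.4% between 4000 and 8000 bp. It was 44.3% between 8000 and 16000 bp and 71.1% over 16000 bp. The listed nuclear members, ribosomal ones included, all have spans over 2000 bp. In the range of 1000 to 2000 bp, none of 9 nuclear respiratory chain genes and none of 27 mitochondrial ribosomal protein genes was listed. The span of a nuclear gene includes its introns, so a nuclear gene of this span generally has a shorter mRNA than a mitochondrial gene of the same span. The listed protein-coding genes of 1000 to 2000 bp had a median of 2.32 in log2 fold change, from the authors' deposited table. Of the 4 mitochondrial genes, *nduo-4* at 2.40 stood above that median and the other 3 below it.

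**Figure D3:**
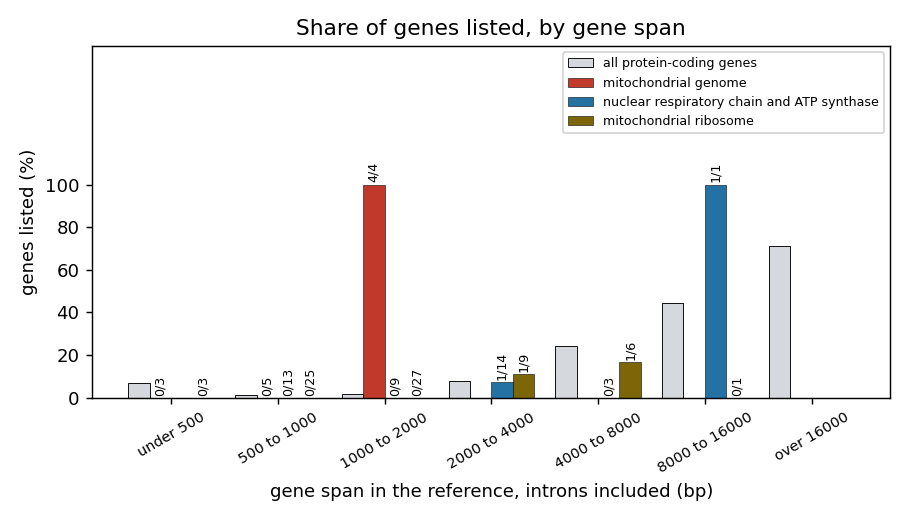
Percentage of genes listed, by gene span in bp with introns included, for all protein-coding genes (grey), genes of the mitochondrial genome (red), nuclear respiratory chain and ATP synthase genes (blue) and mitochondrial ribosomal protein genes (ochre). Fractions above the bars give listed genes over genes in the reference. The 4 of 4 mitochondrial genes at 1000 to 2000 bp stand against 1.77% of all protein-coding genes there.

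Of the nuclear genes for complex I, the rule covers 8 in the reference, and *nuo-5* (WBGene00021562, chromosome V, 2698972 to 2707038) was the only one listed. It encodes the counterpart of human NDUFS1, which carries iron-sulfur clusters in the arm that takes electrons from NADH. It stood at 1.92 ± 0.26 (log2 fold change ± SE) with a mean of 990 in the authors' deposited table, or 3.78-fold. That value lay close to those of the mitochondrially encoded members of complex I: it was 0.096 above *nduo-5* (95% interval -0.54 to 0.73), and *nduo-4* was 0.49 above it (-0.23 to 1.2). At 8067 bp *nuo-5* had the longest span of the 40 nuclear respiratory chain genes. In the reference its span overlaps that of C24B9.3, a gene that is not listed, by 73 bp. The strand setting of the counting is not given in the sources used here, so reads of that stretch cannot be assigned to either gene. Not listed were *nuo-1*, *nuo-2*, *nuo-3*, *nuo-4*, *nuo-6*, *gas-1* and *lpd-5*, among them *nuo-1*, the subunit that binds NADH, and *gas-1*, the core subunit next to the quinone site.

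Complex II, the succinate dehydrogenase, feeds electrons from the citrate cycle into the chain, and 1 of its 4 genes covered by the rule was listed. That gene was *sdha-1* (WBGene00015391, chromosome X, 8542757 to 8546021), for the flavoprotein that oxidizes succinate. It stood at 1.09 ± 0.13 (log2 fold change ± SE) with a mean of 579 in the authors' deposited table, or 2.14-fold. It was the member nearest to the table's threshold, followed by *ctb-1*; values below the threshold are not known. Its 95% interval, 1.79-fold to 2.55-fold, included a change of 2-fold. Its fold was below that of *nuo-5* by 0.82 on the log2 scale (0.25 to 1.4) and below that of *nduo-4* by 1.31 (0.75 to 1.87). The related *sdha-2*, the iron-sulfur subunit gene *sdhb-1* and the membrane anchor gene *mev-1* were not listed. How reads shared by *sdha-1* and *sdha-2* were counted is not given in the sources used here.

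Of the nuclear genes that the rule covers, none of complex III, cytochrome c, complex IV or the ATP synthase was listed. For complex III these were 7 genes, among them *isp-1*, the Rieske iron-sulfur protein, and *cyc-1*, cytochrome c1. For complex IV they were 7 subunit genes, *cox-4*, *cox-5A*, *cox-5B*, *cox-6A*, *cox-6B*, *cox-6C* and *cox-7C*, and 8 assembly factor genes, among them *cox-10* and *cox-15*, which make the haem of the oxidase, and *cox-17*, which carries copper to it. For the ATP synthase they were *atp-1* to *atp-5*, which include the genes for the alpha and beta subunits of the catalytic head. The 7 nuclear oxidase subunit genes are short, with spans of 553 to 1262 bp. Genes of longer span were also among those not listed, such as *cox-10* with 6812 bp and *cox-18*, for a factor that inserts oxidase subunits into the membrane, with 5528 bp. In complex III the mitochondrially encoded *ctb-1* was thus listed with none of the 7 nuclear genes covered by the rule. In complex IV *ctc-1* was listed with none of the 7 nuclear subunit genes covered.

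The mitochondrial ribosome gave the highest folds of the members, from 2 of its 71 genes. *mrpl-45* (WBGene00022493, chromosome III, 1196389 to 1202008) encodes a large subunit protein whose mammalian counterpart lies at the exit of the peptide tunnel, next to the inner membrane. It stood at 4.62 ± 0.42 (log2 fold change ± SE) with a mean of 194 in the authors' deposited table, or 24.6-fold (95% interval 13.98 to 43.3). *mrps-31* (WBGene00007859, chromosome III, 3627234 to 3630372) encodes a protein of the small subunit. It stood at 4.22 ± 0.64 with a mean of 146 in the authors' deposited table, or 18.6-fold (7.78 to 44.7). These folds were higher than those of 92.4% and 90.9% of the listed protein-coding genes, and their means were the lowest of the 8 members. Their SEs were also high, above those of 80.1% of the listed protein-coding genes for *mrpl-45* and 92.1% for *mrps-31*.

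The folds of the ribosomal genes differed from each other by less than their errors (0.40 on the log2 scale, 95% interval -1.1 to 1.90). Against each of the 6 respiratory chain members both were higher, with all 12 intervals above 0. The narrowest margin was that of *mrps-31* over *nduo-4*, at 1.82 on the log2 scale (0.46 to 3.17). No reference gene overlaps either span. In span *mrpl-45* ranks 3 and *mrps-31* 10 among the 71 genes, and the longest, *mrpl-38* with 10084 bp and *mrpl-37* with 6992 bp, were not listed. Of 42 large subunit genes 41 were not listed, and of 29 small subunit genes 28.

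**Figure D4:**
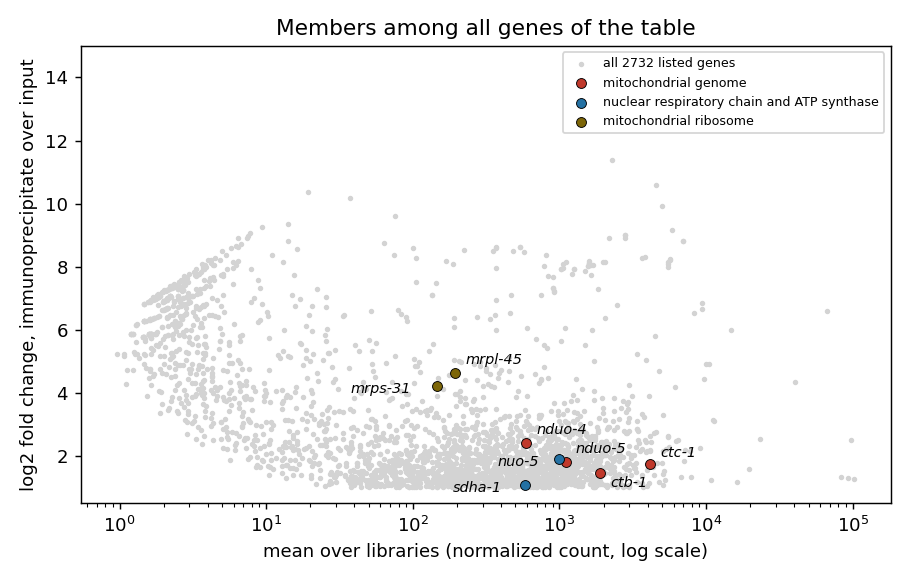
Mean normalized count over the libraries (log scale) against log2 fold change of immunoprecipitate over input for all 2732 listed genes (grey), with the 8 members coloured by genome and function. The ribosomal genes *mrps-31* and *mrpl-45* lie at means of 146 and 194 with folds above 4 (log2), and *ctc-1* has the highest mean of the members, 4126.

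As a group the mitochondrially encoded members had a median log2 fold change of 1.78, against 1.81 for the 2120 listed protein-coding genes and 2.13 for all listed genes, from the authors' deposited table. Only *nduo-4* of the 4 was at or above 4-fold, where 42.3% of the listed protein-coding genes were. The authors' one-sided adjusted p ran from 1.91e-27 for *mrpl-45* to 3.88e-10 for *mrps-31* over the 8 members, per the authors' deposited table (Benjamini-Hochberg). The SEs of the 4 mitochondrially encoded genes ran from 0.18 to 0.26 in the authors' deposited table, each below the median SE of 0.26 over listed protein-coding genes. The 2 nuclear respiratory chain members had a median of 1.51 and the 2 ribosomal members 4.42 in the authors' deposited table.

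With a 2-fold change as the null value, 6 of the 8 members passed a one-sided normal test on the authors' values (Benjamini-Hochberg adjusted over the 20328 tested genes, threshold 0.01). Of the 2120 listed protein-coding genes 46.9% passed. Over all tested genes 1350 passed, or 6.64%, and 995 of the reference protein-coding genes, or 4.98%, where the 6 members make up 4.88% of the 123 reference genes with names of the rule. Taken over all such names, the share past the test was thus near the background. Those past the test were *mrpl-45*, *mrps-31*, *nduo-4*, *nduo-5*, *ctc-1* and *nuo-5*. The adjusted p was 0.00363 for *nuo-5*, the weakest of the 6, while *ctb-1* (0.125) and *sdha-1* (1) did not pass by this normal test with Benjamini-Hochberg adjustment. Because the table was selected on the same values, this count describes how far the members exceed the table's own limit.

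Other genes of mitochondrial function were looked up in 9 lists named from general knowledge, with 99 genes in the reference besides those of the rule. Of these 99 genes 11, or 11.1%, were listed, near the 10.6% of all reference protein-coding genes. The counts of single lists are small and were not tested against that share. None of the 15 genes in the list of further respiratory chain and ATP synthase genes was in the table; they include *nduf-7*, *sdhd-1*, *cyc-2.2*, *asb-1* and *asb-2*, and *mai-2*, for an inhibitor of the ATP synthase. The related inhibitor gene *mai-1*, which no list named and which was looked up after its value was seen, was listed at 1.88 ± 0.54 (log2 fold change ± SE) with a mean of 47.1, per the authors' deposited table. Also without a listed gene were the 14 assembly factors (8 of them the cox- genes named above), the 11 genes for charging mitochondrial tRNAs, the 13 protein import genes and the 8 inner membrane carriers found in the reference.

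Genes for copying and expressing the mitochondrial genome gave 2 listed of 10. *polg-1*, the mitochondrial DNA polymerase, had a log2 fold change of 1.52 ± 0.12 (± SE) by the authors' deposited table. *mma-1*, a counterpart of human LRPPRC, which stabilizes mitochondrial mRNAs, had one of 1.05 ± 0.088 by the authors' deposited table. Of 19 genes for the pyruvate and citrate cycle enzymes 4 were listed. They were *ogdh-1*, a subunit of the 2-oxoglutarate dehydrogenase, at 2.3 ± 0.26, *suca-1*, a succinyl-CoA ligase subunit, at 1.51 ± 0.30, the pyruvate carboxylase gene *pyc-1* at 1.17 ± 0.097 and the aconitase gene *aco-2* at 1.15 ± 0.24 (log2 fold change with its SE, from the authors' deposited table).

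Of 9 mitochondrial chaperone and protease genes 3 were listed. These were *spg-7*, an inner membrane protease, at 2.39 ± 0.36, the mitochondrial Hsp70 gene *hsp-6* at 2.04 ± 0.37 and the Lon protease gene *lonp-1* at 1.1 ± 0.22 (log2 fold change with its SE, from the authors' deposited table). Of 8 genes for mitochondrial shape 2 were listed, *eat-3*, which fuses inner membranes, at 2.33 ± 0.30 and *immt-1*, a cristae organizer, at 1.41 ± 0.24 (log2 fold change with its SE, from the authors' deposited table). The folds of these 11 genes, from 1.05 to 2.39 in the authors' deposited table, lay within the range of the 6 respiratory chain members, apart from *mma-1* just below it, and under those of *mrpl-45* and *mrps-31*. All 11 have spans of 2437 bp or more. Between 2000 and 4000 bp 8.06% of all protein-coding genes were listed, and larger shares at longer spans.

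**Figure D5:**
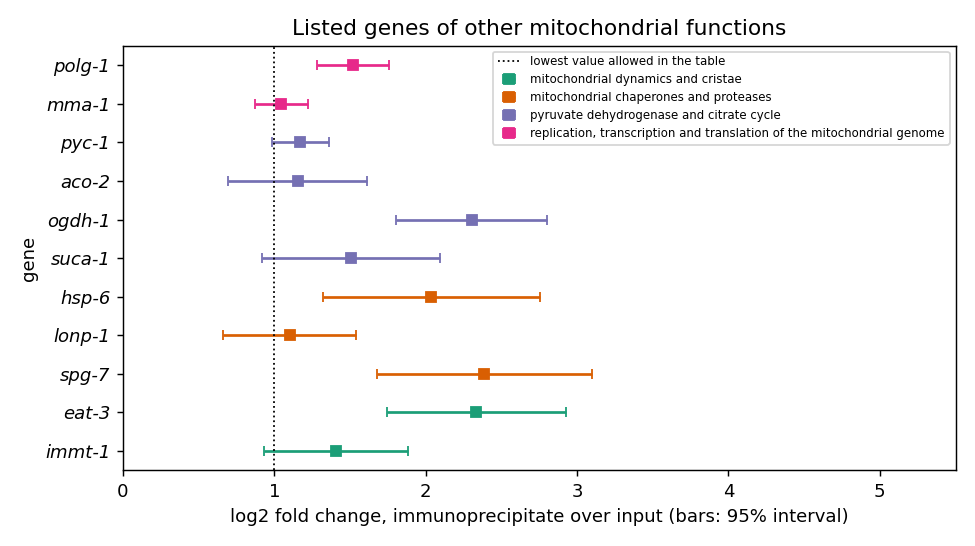
Log2 fold change of immunoprecipitate over input, with 95% intervals, for the 11 listed genes of other mitochondrial functions, coloured by list. *spg-7*, *eat-3*, *ogdh-1* and *hsp-6* lie above 2 and the other 7 between 1.05 and 1.52; the dotted line marks the lowest value allowed in the table.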

How the data were processed

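RNA immunoprecipitates and inputs of 3xFLAG::DLC-1 worms were sequenced (5 libraries each, grouped by title). Per the submitters' processing notes, the tools were STAR 2.5.2b-0, Bowtie2 2.3.0, DESeq2 1.12.3 and Trim Galore, with the builds WBcel235 and ce11. Their roles, how reads were counted and the strand setting are not given there. The deposited table gives, per the file headers, a mean normalized count as signal, a log2 fold change, its standard error and a test score, and raw and adjusted p-values. The deposited p-values equal the upper normal tail of the score, so the authors' test was one-sided. The number of tested genes, 20328, was recovered from the deposited adjusted p-values: with it, 96.2% of implied ranks were whole to 0.0001.

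Names were matched to RefSeq genes of WBcel235 (2497 by name or by the mitochondrial gene's other name, 167 by locus tag, 68 unmatched). The 2 rRNA and 22 tRNA genes of the mitochondrial genome carry other names there and were not compared. Every listed member, and every listed gene of the 9 mitochondrial lists and 17 markers, was eligible to be named; for 3 list genes outside the rule no reference gene was found. The gene *mai-1* was added after its value was seen. Intervals are ± the 95% normal quantile times the deposited standard error. The test against 2-fold assumed that genes outside the table have larger p-values, and was checked on simulated data. No simulated gene had a true change near 2-fold, so that check does not cover calls near the limit. Computations used Python 3.11.15 with pandas 2.3.3 and SciPy 1.17.1. Members, lists and tests were chosen with earlier results of these data known. Alternatives were the test against 2-fold, minimum means of 10 and 100 normalized counts, inverse-variance weighted means, structural subunits only, and matching through locus tags.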

Additional observations from a re-analysis of the deposited data

How the results depend on the processing

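Minimum means of 10 or 100 normalized counts and matching through locus tags left the counts of listed members at 4 for the mitochondrial genome, 2 for the nuclear respiratory chain and 2 for the mitochondrial ribosome. Under the test against a 2-fold change, 3 mitochondrial-genome, 1 nuclear respiratory chain and 2 ribosomal members passed, and the remaining nuclear gene, *nuo-5*, set that group's value at 1.92 (log2 fold change) in place of the median of 1.51. Weighted means were 1.80 for the mitochondrial genome, 1.26 for the nuclear respiratory chain and 4.5 for the ribosome. The mitochondrial-genome median exceeded that of the nuclear respiratory chain by 0.27, or by 0.54 with weighted means. Both groups cover only genes that passed the limit of the table, 4 of 12 and 2 of 40. The values of the other genes are unknown, so this difference does not compare the 2 genomes. The mitochondrial-genome median differed from that of listed protein-coding genes by -0.034. Among genes with a mean of at least 100 that difference was 0.038, so its sign is not settled. No paired analysis was possible because the table holds no values per library, and for the same reason no replicate was left out and depth sets no stated limit.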
